A study of Mus musculus with 9 samples.

Results

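The enzymes that activate ubiquitin and its relatives (E1) and those that carry them to a target (E2) were followed as a gene family across 9 peak lists from mouse fat. Members were all protein-coding genes of the GENCODE M21 annotation whose symbol starts with Ube2, or with Uba and a digit. This rule used names only and gave 45 of 21938 protein-coding genes, 8 of them Uba genes and 37 of them Ube2 genes. It also brought in Ube2cbp, which binds an E2 and acts as a ligase. A gene was said to have a promoter peak when a peak overlapped the 1 kb on either side of any of its transcription start sites (TSS). More start sites give a gene more chance of a peak. The members had more of them on average than all genes, and the shares were not adjusted for this.

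Ubiquitin is a small protein that cells attach to other proteins. An E1 spends ATP to activate it, an E2 receives it from the E1, and an E3 ligase selects the substrate. With many ligases, though not all, the E2 largely decides what kind of ubiquitin chain is built. Sister modifiers such as SUMO, NEDD8 and ISG15 have E1 and E2 enzymes of their own. In fat cells the pathway feeds the proteasome and marks damaged mitochondria for removal by autophagy.

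The series was made to learn how the ETS transcription factor Ets1 acts on beiging, the gain of heat-producing cells in white fat. Mature floating adipocytes of the inguinal pad (iWAT) of male mice aged 8 to 10 weeks gave 8 libraries, and the last came from beige adipocytes grown from the stromal vascular fraction (SVF) of iWAT of male mice aged 3 to 4 weeks and differentiated for 6 days. Ets1 was profiled in wild type C57 mice at room temperature (RT), in wild type C57 mice after 7 days of cold stress (CS) and in the beige cells, which were also wild type C57. H3K27ac, a histone mark of active promoters and enhancers, was read in EA+/+ mice (homozygous for an Ets1 knock-in and carrying Adipoq-cre), in their EC+/+ controls (homozygous for the silent knock-in without Cre, and labelled wild type), in EAKO mice (Ets1 knock-out by Adipoq-cre on floxed Ets1) and in their Flox controls. Accessible chromatin was mapped by ATAC in Flox and EAKO. The knock-in places Ets1 behind a CAG promoter and a floxed stop at the Hipp11 locus, and Adipoq-cre acts in adipocytes, so other cells of the floating fraction keep the control state. Each group had a single library, so the counts below are descriptions and carry no p-values. In such bulk material fewer cells of a type and less signal per cell cannot be told apart.

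The Ets1 lists held from 4056 peaks (RT) over 14858 (CS) to 30553 (beige), the H3K27ac lists from 33713 (EC+/+) to 86834 (Flox), and the ATAC lists 88977 (Flox) and 82839 (EAKO). The lists hold peaks and no reads. Read totals given with the study are close between RT and CS, and between Flox and EAKO for H3K27ac. They are somewhat higher for beige cells than for CS, for EA+/+ than for EC+/+, and for Flox than for EAKO in ATAC. A larger list gives every gene more chance of a peak. The strength of a peak is given as the −log10 of its q-value, which depends on depth and background and is therefore never divided between lists, and as its percentile within its own list, where 100 is the strongest. Ets1 itself had a promoter peak in every list except RT, with 16 ATAC peaks over the gene in Flox and 14 in EAKO, counts that span parts of the gene a deletion leaves in place. Of 8 adipocyte markers, 3 to 5 had a promoter peak in each list other than RT, where none had, and Adipoq had none in any list. Markers of other cells were also seen, at 0 to 2 of 4 endothelial, 0 to 2 of 4 macrophage, 0 to 2 of 4 lymphocyte and 0 to 4 of 4 progenitor genes per list. Of the endothelial markers 2 (Tie1 and Cdh5) had an Ets1 peak in CS and none had one in beige cells. No progenitor, macrophage or lymphocyte marker had one in CS, against 2, 2 and 1 in beige cells. Their part in the differences below was not tested.

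Most members were open and acetylated in iWAT adipocytes. Flox ATAC showed a promoter peak at 41 of the 45 (67.7% of all genes) and EAKO ATAC at the same number (66% of all genes). H3K27ac marked 42 of them in Flox (63.9%) and 40 of them in EAKO (60.5%). With the shorter lists of the knock-in line, EC+/+ had 29 (52%) and EA+/+ had 31 (50.4%). Ets1 peaks lay at 1 member promoter in RT (4.06% of all genes), at 23 in CS (32.7%) and at 34 in beige cells (46.4%).

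**Figure D1:**
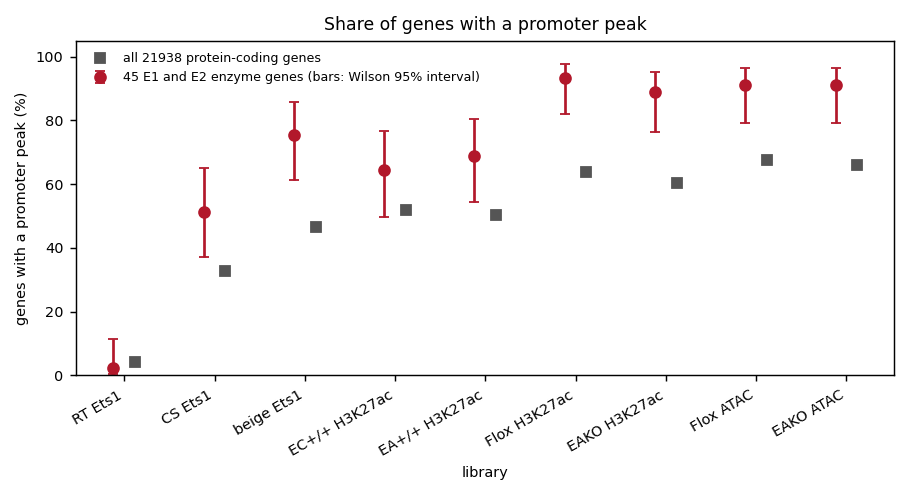
Share of genes with a promoter peak (vertical axis, percent) in each of the 9 libraries (horizontal axis), for the 45 E1 and E2 enzyme genes (circles, with Wilson 95% intervals that cover counting error over genes only) and all 21938 protein-coding genes (squares). The circles stand above the squares in all lists except RT, where 1 member had a peak.

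Because enzymes of this kind are used by most cells, the share was also read among genes that are open in the same tissue. Of the 41 members with a Flox ATAC promoter peak, 23 had an Ets1 peak in CS and 34 in beige cells, against 47.4% and 68.1% of the 14858 genes with such a peak. That is 56.1% of these members in CS (Wilson 95% interval 41.0 to 70.1) and 82.9% in beige cells (68.7 to 91.5). The interval for CS spans the share of all open genes, and that for beige cells lies just above it. Once a Flox H3K27ac peak was required as well, the share of all genes was 51.7% in CS and 74.2% in beige cells, the last within the members' interval. For H3K27ac in the knock-in line the members were close to all open genes, with 70.7% against 73.7% in EC+/+ and 75.6% against 71.1% in EA+/+.

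The genes that carried no peak were few. Uba1y, the copy of Uba1 on the Y chromosome, and the Ube2d relatives Ube2dnl1 and Ube2dnl2 on the X chromosome had no promoter peak in any list. Ube2d2b, a close copy of Ube2d2a, had a single one, H3K27ac in Flox at a −log10 q of 5.00, and these 4 were the members without an ATAC peak. Reads of such copies can be shared with their relatives, and what part this has in their missing peaks was not tested. Ube2d3, by contrast, had a promoter peak in all 9 lists, and 15 further members had one in 8. Among all 21938 genes 676 had one in all 9 lists and 4713 in 8.

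**Figure D2:**
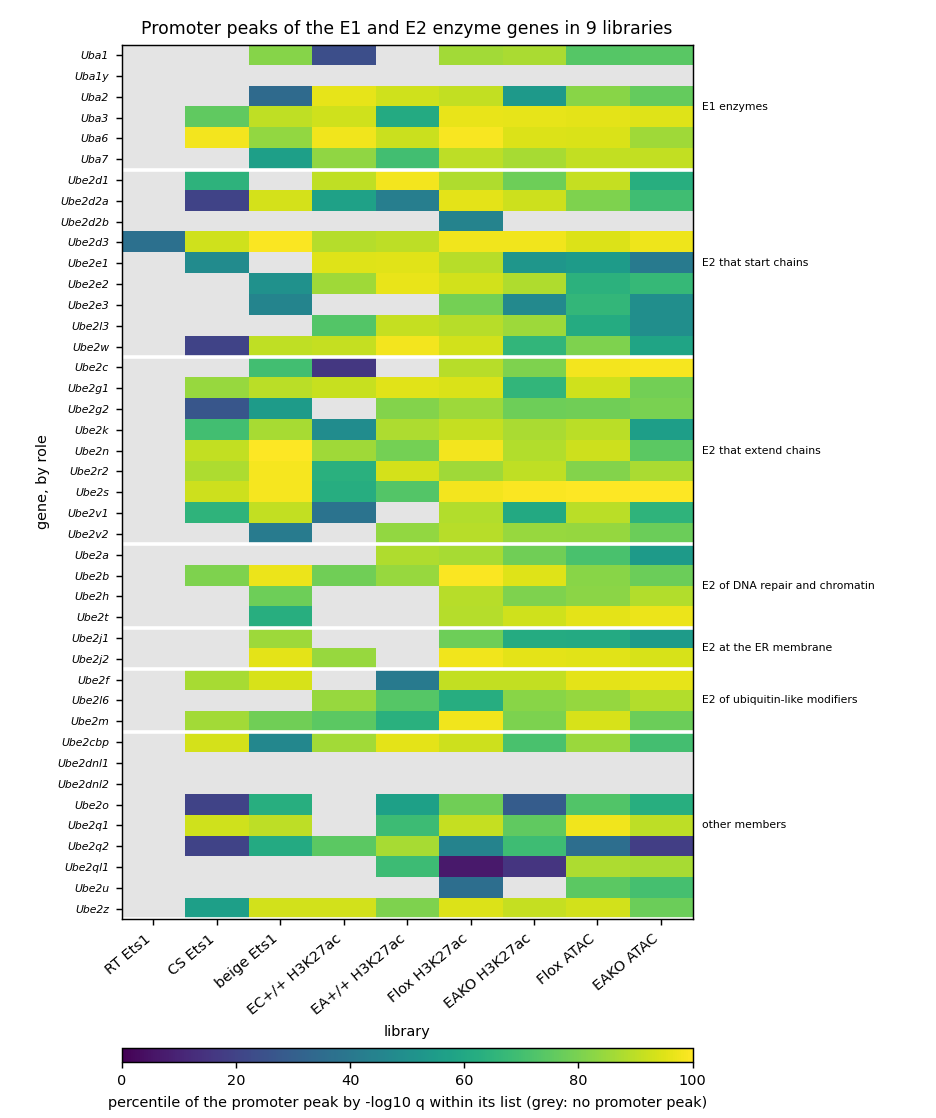
Percentile of the strongest promoter peak of 42 of the 45 members (rows, grouped by role) within each of the 9 lists (columns), by −log10 q, with grey where there was no promoter peak. The RT column is grey except for Ube2d3 at percentile 37.0, and Uba1y, Ube2dnl1 and Ube2dnl2 are grey throughout.

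Cold exposure was compared with room temperature first. In CS, 22 members had an Ets1 promoter peak that RT lacked (29.1% of all genes), no member had the reverse (0.428% of all genes), and Ube2d3 had one in both. The RT list is the shortest, and this weighs on the count. With the 4056 best peaks of each list, the members seen in CS only fell from 22 to 11. The share of all genes at that setting is not given here, so the 11 cannot be set against a background. Ube2d3, an E2 that works with many ligases to place the first ubiquitin, had a −log10 q of 2.97 in RT (percentile 37.0) and 11.2 in CS (percentile 92.6), each within its own list.

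Uba6, the alternative ubiquitin E1, stood out in CS. Its peak had a −log10 q of 21.4, was ranked 241 of 14858 peaks and had its summit 53 bp upstream of a TSS. Uba3, the catalytic subunit of the NEDD8 E1, followed at 5.91. Uba1, which activates most ubiquitin, Uba2 (SUMO), Uba7 (ISG15) and Uba1y had no peak in CS, and none of these E1 genes had one in RT.

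Among the 9 genes grouped as extending chains or assisting in it, 7 had a peak in CS (32.7% of all genes, 47.4% of open genes). Ube2s, which lengthens chains on targets of the anaphase-promoting complex, had 10.9. Ube2n, which builds lysine-63 chains with Ube2v1 or Ube2v2, had 10.1, and its inactive partner Ube2v1 had 4.58. Ube2r2, a partner of cullin ligases, reached 8.81. Ube2g1, Ube2k and Ube2g2, all makers of lysine-48 chains, had 7.74, 5.19 and 2.62. The peak of Ube2k lay in a window that also holds the start of Smim14. Ube2v2 had no peak in CS. Nor did Ube2c, which starts chains for the anaphase-promoting complex but was counted in this group.

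Among the 9 E2 genes grouped as starting chains, 5 had a peak in CS (32.7% of all genes, 47.4% of open genes). Beside Ube2d3, its relatives Ube2d1 and Ube2d2a had 4.54 and 2.14, Ube2e1 had 3.58, and Ube2w, which attaches ubiquitin to the amino end of proteins, had 2.14. Ube2d2b, Ube2e2, Ube2e3 and Ube2l3, the E2 favoured by parkin and other RING-between-RING ligases, had none.

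For the sister modifiers, both E2 genes of NEDD8 had a peak in CS, Ube2f at 8.49 and Ube2m at 8.28. Ube2l6, the ISG15 E2, had none. Among the E2 genes of DNA repair and chromatin, Ube2b, a partner of Rad18, had 6.72, while its twin Ube2a, Ube2t of the Fanconi anaemia pathway and Ube2h had none. The E2 genes of the endoplasmic reticulum membrane, Ube2j1 and Ube2j2, which serve the removal of misfolded proteins, had none either.

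Of the remaining 9 members, Ube2cbp had 11.9 and Ube2q1 11.2, the next after Uba6, with Ube2d3 close behind. Ube2z, which takes ubiquitin from Uba6, had 3.97. Ube2o, a large enzyme that unites E2 and E3 activity, and Ube2q2 had 2.14, percentile 20.0 of the list. Ube2ql1, Ube2u, Ube2dnl1 and Ube2dnl2 had none.

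Beige cells were then set beside CS, which serves in both comparisons, so that these are not independent. In beige cells 13 members had an Ets1 promoter peak that CS lacked (17.1% of all genes), 21 had one in both, and 2 had one in CS only (3.39% of all genes). The beige library differs from CS in culture, age of the donors and cell stage, which cannot be told apart. The 2 members with a peak in CS only were Ube2d1 and Ube2e1.

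**Figure D3:**
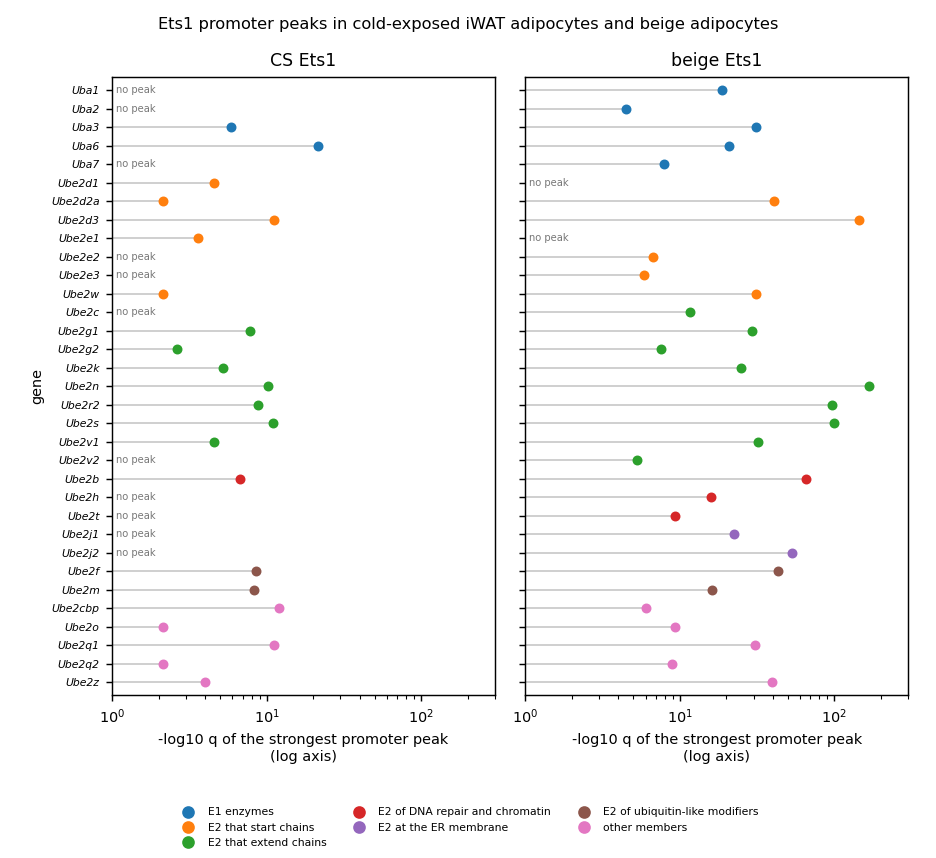
The −log10 q of the strongest Ets1 promoter peak (horizontal axis, log scale) of the members of the percentile map with any Ets1 promoter peak (rows), in CS (left) and in beige cells (right), coloured by role. Uba6 is the highest in CS at 21.4, and Ube2n at 167 and Ube2d3 at 144 are the highest in beige cells. The scales of both panels depend on depth and are not to be compared point by point.

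The order of the members was not the same in both lists. Ube2n, at 167, ranked 110 of 30553 beige peaks. Ube2d3 followed at 144, and then Ube2s at 99.4, Ube2r2 at 96.2 and Ube2b at 65.9. Uba6 had 20.7, percentile 83.8 of the beige list against 98.4 of the CS list. Ube2cbp went from percentile 93.5 in CS to 46.4 in beige cells, where its −log10 q was 6.08.

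In the other direction, Ube2w stood at percentile 20.0 in CS and at 90.5 in beige cells (31.3), and Ube2d2a at 20.0 and 93.6 (40.7). Of the 21 members with a peak in both lists, 17 stood at a higher percentile in beige cells and 4 at a lower one, against 33% of 6434 genes at a lower one. The median difference was +14.7 percentile points for the members and +5.66 for all such genes. The strongest CS and beige peaks of Ube2g2 and Ube2q2 did not overlap. Over the other 19 members 4 were lower (33.3% of genes), with a median difference of +10.8 points against +5.07.

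Among the E1 genes, Uba1, Uba2 and Uba7 had a peak in beige cells and none in CS, and Uba1y had none in either. Uba3 had 31.2 in beige cells and Uba1 18.9, while Uba7 had 7.91 and Uba2 4.47. The window of Uba7 also holds the start of Gm20661, so this peak cannot be assigned to either gene.

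Both E2 genes of the endoplasmic reticulum membrane had a peak in beige cells, Ube2j2 at 53.3 and Ube2j1 at 22.5, and neither in CS. All 9 genes of the chain-extending group had one in beige cells (46.4% of all genes, 68.1% of open genes). Ube2c, at 11.6, and Ube2v2, at 5.27, were those without a peak in CS. Ube2h had 15.8, Ube2t 9.33, Ube2e2 6.70 and Ube2e3 5.86, all without a peak in CS. Ube2f had 43.2 and Ube2z 39.5, with Ube2m lower at 16.1. Ube2l3, Ube2l6, Ube2a, Ube2ql1, Ube2u, Ube2d2b, Uba1y, Ube2dnl1 and Ube2dnl2 had no Ets1 promoter peak in any of the 3 lists.

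The Ets1 peaks lay on open, acetylated promoters. All 23 CS peaks overlapped a Flox ATAC peak (94.5% of genes with a CS promoter peak) and all 23 a Flox H3K27ac peak (93.9%). In beige cells 33 of 34 overlapped Flox ATAC (97.5%), Ube2e3 being the exception, and 32 overlapped Flox H3K27ac (94.4%), with Ube2e3 and Ube2j1 outside. The peaks were close to a start site, with a median distance of 68 bp in CS (110 bp over all genes) and 83.5 bp in beige cells (86 bp). Where both lists had a promoter peak, the strongest CS peak overlapped a beige peak at 20 of 21 members (93.0% of such genes), and Ube2q2 was the exception.

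The sequence at these summits was read from GRCm38 (mm10), the build of the lists. ETS factors bind around a GGAA core, and the search was for CCGGAAG on either strand within 100 bp of the summit. It was found at 6 of 23 members in CS (26.1%, against 11.5% of 6254 promoter peaks), at 4 of 34 in beige cells (11.8%, against 15.7% of 8970), and at 8 of 41 in Flox ATAC (against 12.0%). Within 50 bp it was found at 2 of 23 in CS (8.70%, against 5.66% of all) and at 1 of 34 in beige cells (2.94%, against 8.81%), so most of these matches lay off the summit. Windows of 151 bases around the summit are shown on the strand of the gene, with any CCGGAA or its reverse complement in capitals, to compare the leading promoters. They are Uba6 and Ube2q1 in CS, and Ube2n, the strongest in beige cells, which was chosen after its values were seen.
Uba6, chr5:86172781-86172931, minus strand: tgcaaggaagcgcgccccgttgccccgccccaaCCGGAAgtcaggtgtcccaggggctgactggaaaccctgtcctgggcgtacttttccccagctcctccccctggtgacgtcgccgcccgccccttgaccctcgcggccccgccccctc
Ube2q1, chr3:89773330-89773480, plus strand: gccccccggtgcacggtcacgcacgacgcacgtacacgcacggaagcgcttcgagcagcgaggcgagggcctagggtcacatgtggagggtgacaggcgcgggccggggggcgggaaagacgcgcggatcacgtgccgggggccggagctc
Ube2n, chr10:95514867-95515017, plus strand: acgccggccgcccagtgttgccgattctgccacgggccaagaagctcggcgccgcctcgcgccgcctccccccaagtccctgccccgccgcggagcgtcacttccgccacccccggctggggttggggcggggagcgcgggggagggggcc
Among these windows, Uba6 alone held CCGGAA, with the motif 39 bp from the CS summit and 92 bp upstream of the TSS. The same letters lay 41 bp from its beige summit. The shorter core GGAA also occurs, on either strand, in the Ube2q1 and Ube2n windows, where it is left in small letters. The CS windows of Ube2cbp and Ube2d3, which are not printed, held no CCGGAA. A window without CCGGAA says nothing about the factor itself.

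The other members with the motif at a CS peak were Ube2f, Ube2r2, Ube2b, Ube2g1 and Ube2g2, and in beige cells Uba2, Ube2f and Ube2v2 beside Uba6. The stretches are printed for the CS members, 27 bases each on the strand of the gene with the motif in capitals, to show the matches behind the count.
Ube2f, chr1:91250075-91250101, plus strand: tggaaacaaaCCGGAAGgccgctaggc
Ube2r2, chr4:41135130-41135156, plus strand: gctgaggttcCTTCCGGgacacgcctc
Ube2b, chr11:52000571-52000597, minus strand: agcaacaagcCCGGAAGgccgccttct
Ube2g1, chr11:72607370-72607396, plus strand: gtaccctcccCTTCCGGgcgtgaggcg
Ube2g2, chr10:77622283-77622309, plus strand: agcccgcgacCCGGAAGcagtcgtggg
The match read CCGGAAG on the gene strand in Ube2f, Ube2b and Ube2g2, as in Uba6, and as its reverse complement in Ube2r2 and Ube2g1. It lay 216 bp upstream of a TSS in Ube2f, 600 bp upstream in Ube2r2 and 64 bp downstream in Ube2g1. In RefSeq's promoters of the same build, short stretches mostly upstream of each start, 8 of the 35 members with an entry held CCGGAAG, against 13.4% of 16522 genes. Member promoters were richer in CpG than those of all genes. The ratio of observed to expected CpG in the 1 kb around the 5′ end had a median of 0.819, against 0.552 over all genes and 0.697 over genes with a Flox ATAC peak. The share with a ratio over 0.6 was near that of open genes. It was 66.7% of members, 65.5% of genes with a Flox ATAC peak and 45.9% of all genes.

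The knock-in of Ets1 was examined through H3K27ac. In EA+/+, 7 members had a promoter peak that EC+/+ lacked (7.33% of all genes), 5 had the reverse (8.89% of all genes), and 24 had one in both. Those in EA+/+ only were Ube2a (6.50), Ube2v2 (5.64), Ube2g2 (5.43), Ube2q1 (4.10), Ube2ql1 (4.09), Ube2o (3.46) and Ube2f (2.89). The window of Ube2a also holds the start of C330007P06Rik. Those in EC+/+ only included Ube2j2 (7.22), Ube2v1 (3.18), Uba1 (2.54) and Ube2c (2.35). Their percentiles within the lists ran from 16.1 (Ube2c) to 88.1 (Ube2a). These counts are 7 and 5 of 45, which is 15.6% and 11.1% of the members.

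Of the 24 members with a peak in both, 11 stood at a lower percentile in EA+/+ (52.3% of 9450 genes), with a median difference of +0.784 points against −0.469 over all genes. Single members moved far in either direction. Uba3 stood at percentile 92.7 in EC+/+ and 61.0 in EA+/+. Ube2k, whose window is shared with Smim14, went from 48.6 to 87.5, and Ube2r2 from 63.3 to 93.7. With 1 library each, the spread between animals behind such differences is unknown.

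Loss of Ets1 in adipocytes was examined through H3K27ac and ATAC. No member had an H3K27ac promoter peak in EAKO that Flox lacked (1.75% of all genes), 2 had the reverse (5.18%), and 40 had one in both. The 2 were Ube2d2b at 5.00 and Ube2u at 4.20, both weak. In ATAC all 41 members with a peak had it in both genotypes, with none in EAKO only (0.784% of all genes) or in Flox only (2.54% of all genes). Presence of a peak thus barely differed between the genotypes.

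Rank within the list differed more. In H3K27ac, 29 of the 40 members stood at a lower percentile in EAKO (62.5% of 12879 genes), with a median difference of −4.20 points against −1.19 over all genes. In ATAC it was 29 of 41 (63% of 14301 genes), with −6.02 points against −1.20. Ranked by fold enrichment in place of q, a setting added after the values were seen, 27 of 40 members were lower in H3K27ac (59.2% of genes) and 28 of 41 in ATAC (52.2%). The medians were −5.03 and −4.42 points, against −0.92 and −0.37 over all genes. Both EAKO lists were shorter than those of Flox, and with a single library each, library and genotype cannot be told apart. The strongest Flox and EAKO peaks of a gene did not always overlap. They lay apart at 8 of 40 members in H3K27ac (7.73% of genes) and at 2 of 41 in ATAC (4.24% of genes). Among members whose peaks overlapped, 23 of 32 were lower in H3K27ac (61.9% of genes) and 27 of 39 in ATAC (62.6%).

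The shift was also read by starting level. In ATAC, the median difference was −1.40 points for 17 members at or above percentile 90 in Flox, against −0.477 for all genes at that level. Between 80 and 90 it was −6.02 for 13 members against −2.09, and below 80 it was −9.89 for 11 against −4.95. In H3K27ac there was no such order, with −3.88 for 20 members at or above 90 against −0.719, −5.93 for 14 between 80 and 90 against −2.70, and −3.84 for 6 below 80 against −2.39. Each of these medians lay below that of all genes, on few members each.

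**Figure D4:**
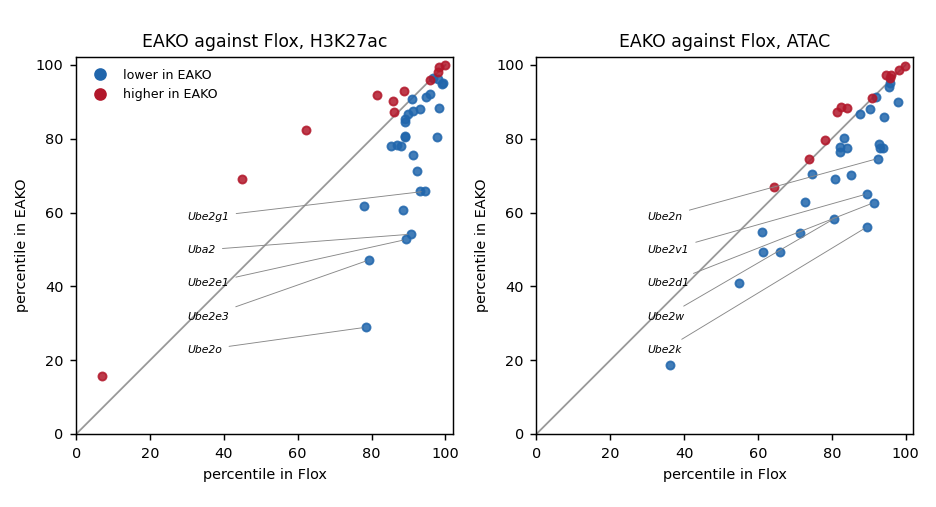
Percentile of each member's promoter peak in Flox (horizontal axis) and EAKO (vertical axis) for H3K27ac (left, 40 members) and ATAC (right, 41 members), with the line of equal percentile in grey. Blue points, below the line, are the 29 members at a lower percentile in EAKO in each panel, and the names mark the 5 with the largest drop, led by Ube2o in H3K27ac and Ube2k in ATAC.

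In ATAC the largest drops were those of Ube2k, from percentile 89.5 in Flox (−log10 q of 87.8) to 56.1 in EAKO (18.7), and Ube2d1, from 91.4 (97.3) to 62.7 (23.0). The window of Ube2k also holds the start of Smim14. Ube2v1 went from 89.6 to 65.1, Ube2w from 80.7 to 58.4, and Ube2n from 92.5 to 74.6. The strongest member hardly moved: Ube2s stood at percentile 99.7 in both, at 203 in Flox and 163 in EAKO. The largest gain was that of Ube2h, from 82.6 to 88.5.

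In H3K27ac the largest drops were those of Ube2o, from percentile 78.4 (14.5) to 28.9 (4.18), Ube2e1, from 89.4 (27.5) to 52.7 (6.79), and Uba2, from 90.7 (30.5) to 54.1 (7.06). For Ube2o and Uba2 these were separate, non-overlapping peaks, so that the values do not follow a single peak. In Uba2 they lay at different start sites, at chr7:34167990-34168660 in Flox and chr7:34157792-34158420 in EAKO. For Ube2e1 the peaks overlapped. Ube2e3, Ube2g1 and Ube2v1 followed, with overlapping peaks in Ube2e3 and Ube2g1. Gains were seen for Ube2q2, from 44.8 to 69.0, and for Ube2l6, from 62.1 to 82.3.

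Members that were lower by 10 or more points in both readouts numbered 8 of the 40 with all 4 peaks, against 6.93% of 12531 genes. They were the chain starters Ube2d1, Ube2e1, Ube2e3 and Ube2w, Ube2g1 and Ube2v1 of the chain-extending group, the NEDD8 E2 Ube2m, and Ube2cbp. No member was higher by as much in both (0.287% of genes). This line of 10 points was drawn after the values were seen, and whether the H3K27ac and ATAC libraries came from the same animals is not given in the sources used here. For Ube2v1 and Ube2w the strongest H3K27ac peaks of Flox and EAKO did not overlap. In Ube2e1 the strongest H3K27ac and ATAC peaks lay at different start sites, in Flox at chr14:18326780-18327421 and chr14:18330640-18331212. The 2 readouts there do not follow a single promoter site.

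Peaks away from promoters were counted in the gene body and 20 kb on each side, taking those that overlapped no window of 1 kb around any protein-coding TSS. These regions had a median length of 65.6 kb, against 57.4 kb over all genes. Ets1 lists held few such distal peaks. RT had 4, CS had 11 and beige cells had 43, whereas H3K27ac had 138 in Flox and 132 in EAKO, and ATAC 121 and 123. Of the 11 CS peaks 10 overlapped no RT peak (86.1% of all distal CS peaks overlapped none), and 5 overlapped no beige peak (86.6%). Of the 43 beige peaks 37 overlapped no CS peak (94.6%).

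Around the members, the shares of distal peaks without a counterpart in the other genotype were lower for ATAC than for H3K27ac. Distal ATAC peaks found in Flox only were 16 of 121 (18.5% over the list) and in EAKO only 18 of 123 (10.6%). For H3K27ac they were 52 of 138 in Flox (40.7%) and 47 of 132 in EAKO (30.7%), and between the knock-in groups 36 of 52 in EA+/+ (75.6%) and 40 of 56 in EC+/+ (69.2%).

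Ube2h showed how the readouts met away from a start site. It had 11 distal ATAC peaks in Flox and 10 in EAKO, the most of all members. The strongest of these, at 82.3 in Flox and 66.6 in EAKO, lay in an intron less than 4 kb into the gene (chr6:30300314-30301411 in Flox). An Ets1 peak lay at the same place in CS, at 5.21, and in beige cells, at 6.59, and an H3K27ac peak in Flox, at 11.7, and in EAKO, at 11.8. Ube2h had no promoter peak of Ets1 in CS, so that this intron held its only CS peak within 20 kb of the gene.

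**Figure D5:**
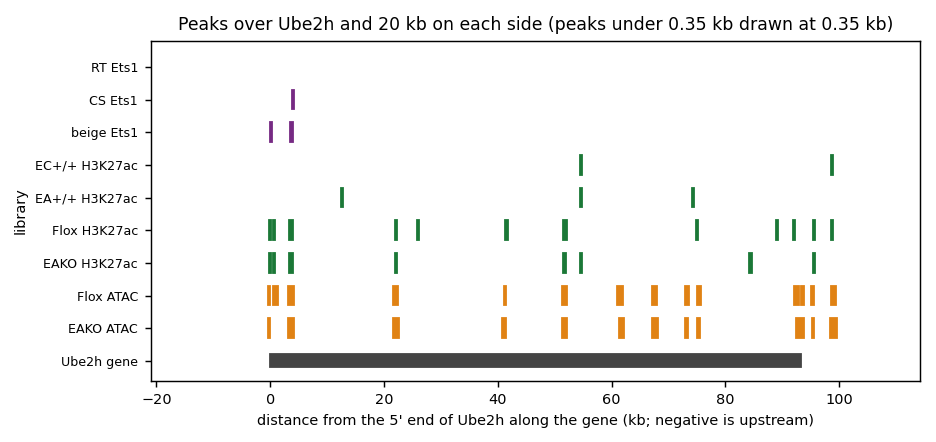
Peaks of the 9 libraries (rows) over Ube2h and 20 kb on each side, by distance from its 5′ end (horizontal axis, kb), with Ets1 in purple, H3K27ac in green, ATAC in orange and the gene in dark grey. The Ets1 peaks of CS and beige cells less than 4 kb into the gene lie over H3K27ac and ATAC peaks of Flox and EAKO, and RT has no peak here.

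Other members had distal sites of their own kind. Ube2e2, the longest member gene, had 15 distal H3K27ac peaks in Flox and 15 in EAKO, of which 6 in either overlapped no peak of the other. Ube2o had 5 distal Ets1 peaks in beige cells, the most of any member, and no distal one in CS. Ube2v1 had a distal Ets1 peak at 52.7 in beige cells, 37.4 kb downstream of its 5′ end and thus beyond the gene, where Flox and EAKO had H3K27ac peaks at 19.8 and 23.3.

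A site at −19.7 kb from the 5′ end of Ube2l3, between Rimbp3 and Hic2 (chr16:17222214-17222496 in Flox ATAC), is described apart from the rest. Its peaks are nevertheless included in the counts of distal peaks above. Its RT peak was the only distal RT peak around the members that overlapped a CS peak. The site had an Ets1 peak in RT at 12.2 (percentile 94.3), in CS at 19.9 (percentile 98.0) and in beige cells at 12.0 (percentile 70.5). H3K27ac was at 16.01 in EA+/+ (percentile 99.0) and had no peak in EC+/+, and was at 25.2 in Flox with no peak in EAKO. In ATAC it ranked 29 of 88977 Flox peaks, at 267, and had no peak in EAKO. It was the strongest of the 14729 Flox ATAC peaks without a counterpart in EAKO, the next being at 119, and the only one among the 29 peaks at or above its value. Of 7 pieces of 40 bp from this peak none occurred elsewhere on the assembled chromosomes, but of 27 pieces of 20 bp 12 did, at 16 places of the assembly, 10 of which held more than a single piece. The letters resemble 28S ribosomal RNA, a likeness noted by eye, since no ribosomal RNA sequence was used here to check it. Its many repeats are poorly held in the assembly, so the values of this site are not read as a result about Ube2l3. No removal of regions with excess signal is described in the sources used here, and the part of repeat reads in this pattern was not tested. The bases at the Flox ATAC summit are printed so that they can be looked up.
Upstream of Ube2l3, chr16:17222262-17222362, plus strand: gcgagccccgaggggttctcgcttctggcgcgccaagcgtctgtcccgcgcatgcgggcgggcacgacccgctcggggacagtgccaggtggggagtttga

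The neighbouring parts of the pathway were read from lists of named genes. In CS, 5 of 12 other E1 and E2 proteins and partner subunits had an Ets1 promoter peak (32.7% of all genes). Beige cells had 9 of them (46.4%) and RT none (4.06%). Birc6, a giant E2 and E3 that restrains cell death, was the strongest in CS and in beige cells, at 25.3 and 102.0. Of 12 ubiquitin and ubiquitin-like genes, 6 had a peak in CS (32.7%), led by Ufm1 at 6.83, and 11 in beige cells (46.4%). Of 26 HECT ligases, 15 had a peak in CS (32.7%), led by Ube3a at 15.4. In beige cells 21 had one (46.4%), led by Herc4 at 50.8.

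RING-between-RING ligases, the class of parkin, were present in most lists. Of 14, Ets1 promoter peaks were found at 2 in RT (4.06% of all genes), Rbck1 being the stronger at 5.29. CS had 11 of them (32.7% of all genes) and beige cells 10 (46.4%). Rnf14 was the strongest in CS at 19.4 and Rnf31, a subunit of the linear-chain ligase, in beige cells at 53.8. In Flox ATAC 11 of 12, 11 of 12, 26 of 26 and 14 of 14 genes of the 4 lists had a promoter peak, and in EAKO ATAC 11, 12, 26 and 14. Over all genes the shares were 67.7% in Flox ATAC and 66% in EAKO ATAC. Of the 14858 genes with a Flox ATAC promoter peak, 47.4% had an Ets1 promoter peak in CS and 68.1% in beige cells. Among the modifiers, Isg15, which Uba7 activates and Ube2l6 carries, was the gene that had a peak in EAKO ATAC and none in Flox ATAC.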

How the data were processed

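The deposited files were 9 lists of peaks, 1 per library. The authors trimmed the reads with trimmomatic and mapped them to mm10 with BWA. MACS2 was then run on every library by itself at a q-value limit of 0.05. SAMtools and deepTools also appear in the submitters' notes. Whether a control library was given to MACS2, and any screening of regions with excess signal, are not given in the sources used here. CUT&Tag and ATAC both cut DNA with a transposase, which can also tag open DNA without the antibody's target. Each deposited list gives positions, a score (10 times the −log10 q, as a whole number), fold enrichment over local background (a linear ratio), −log10 of the p-value and q-value, and the summit offset in bp. Only the positions, fold enrichment, −log10 q and summit were used. The lists hold no read counts, so no interval was computed from depth. Read totals given with the study were close for some comparisons and moderately different for others.

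Counts over the family cover all members, but 3 members and a gene of a further list are not reported here by themselves. Members, roles and further lists were chosen with earlier results of these data known. TSS came from all transcripts of 21938 protein-coding genes of GENCODE M21 (93513 sites) on chromosomes 1 to 19, X and Y, and an overlap of at least 1 bp counted. The strongest peak by −log10 q stood for a gene. Named with values were the members of each role group, the 10 strongest in each Ets1 list, and those that differed in presence within a comparison. Windows to be printed were those of the strongest CS peaks also found in beige cells, of which those lying mostly within exons were left out. Wilson 95% intervals treat genes as independent draws and so reflect counting error alone. Python 3.11.15, numpy 2.4.6, scipy 1.17.1, pysam 0.24.0, samtools 1.23.1 and matplotlib 3.10.9 were used, and the scripts were tested on simulated peaks. The alternatives were q under 0.001, promoters of 500 bp or 3 kb, basic transcripts, equal numbers of best peaks, members with a shared promoter left out, rank by fold enrichment, a flank of 5 kb, an overlap of at least 50% of the peak, and other motif settings. Percentile shifts by fold enrichment, by basic transcripts or over overlapping strongest peaks, and the line of 10 points, were added after seeing the data.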

Additional observations from a re-analysis of the deposited data

How the results depend on the processing

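Of 152 alternative values for the counts and shares, 18 moved by over 1.5 times (counts) or out of the Wilson interval (shares). None was labelled reversed, but this label was not applied to the percentile shifts and the motif shares. Members with a promoter peak in RT numbered 0 at q under 0.001 and 2 with promoters of 3 kb, where 1 member had a peak in RT and not in CS. Members in CS and not RT numbered 11 with equal numbers of best peaks, a setting for which no share of all genes is given. Members in EC+/+ only numbered 3 with promoters of 3 kb, and those with H3K27ac in EAKO only numbered 1 at q under 0.001 and 1 with equal numbers of best peaks. With a flank of 5 kb, distal peaks not shared between RT and CS were 100% of those in CS and 100% of those in RT, and between beige cells and CS they were 94.1% and 75% respectively. With equal numbers of best peaks, 50% of distal CS peaks lacked an RT peak and 72.7% a beige peak. At q under 0.001, 0% of distal RT peaks lacked a CS peak and 0% of distal CS peaks lacked a beige peak, on few peaks. The only distal RT peak kept at this limit was that of the site upstream of Ube2l3. Where an overlap of at least 50% of the peak was required, 20.7% of distal Flox ATAC peaks were in Flox only. Within 50 bp of the summit, the motif was at 8.70% of CS and 2.94% of beige promoter peaks of members. Ranked by fold enrichment, the members' median percentile was 43.3 in RT, 66.9 in Flox ATAC and 61.9 in EAKO ATAC, and that of all genes 59.2, 74.8 and 73.3. The causes were not tested.

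No paired analysis was possible because each group has 1 library and no test was run. The spread between animals is unknown, list length differs between groups, and q-values cannot be compared across lists.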
